A study of Rattus norvegicus with 18 samples.

Results

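Rab proteins are small GTPases that give membrane compartments their identity and steer vesicles between them. A Rab is active on its membrane when bound to GTP, where it recruits motors, tethers and other effectors, and is inactive when bound to GDP. Exchange factors switch Rabs on, GTPase activating proteins switch them off, and a lipid tail added by geranylgeranyl transferase holds them in the membrane. Neurons rely on Rabs for synaptic vesicle release, for transport along axons and for the traffic of receptors through endosomes and lysosomes.

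The Rab genes were taken as all probe sets whose only gene symbol on the platform is Rab followed by a number and an optional letter, with effectors and interacting proteins left out. This gave 60 probe sets for 44 genes out of 10412 genes named in the table, and the probe set with the highest mean stood for each gene. For 14 genes there were several probe sets. A further 2 probe sets named Rab1a and Rab1b together and were not used. The choice used no difference between groups. Of the 44 genes, 36 passed a filter on mean signal (log2 over 7.459) and 8 did not: Rab23, Rab25, Rab27a, Rab27b, Rab38, Rab39a, Rab3c and Rab3d. Of the 8 secretory and synaptic Rabs 4 were kept, while 9 of 10 genes of the endoplasmic reticulum and Golgi were kept, 8 of 8 of post-Golgi exocytosis, 10 of 11 of early and recycling endosomes, 4 of 5 of late endosomes and lysosomes, and 1 of 2 of the rest. Nearest to the limit were Rab23 with a mean log2 of 7.30, just outside, and Rab13 with 7.82, just inside.

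The samples were oculomotor nucleus, the midbrain nucleus whose motor neurons move the eye, and spinal cord of rats aged 6, 18 and 30 months, with 3 arrays per tissue and age and 18 arrays in all. The label notes of 2 arrays name the strain F344BN and the others name none. The labels name no treatment and no allele for any group. According to the design text each RNA sample combined tissue of 4 animals, and it speaks of 4 replicates per group where the labels give 3. Nothing states whether both tissues of an age came from the same animals. A p-value here rests on the spread between pools of RNA, which may be technical in part, and its precision is limited by the number of arrays.

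The array medians lay between 252.1 and 275.3, and the mean log2 signal of the 36 Rab genes was nearly constant, from 9.92 to 9.995 on an array. After group means were subtracted, 4 arrays stood apart on 1 side of the leading principal component: oculomotor 30 months replicate 3 and cord 6 months replicate 1, 18 months replicate 3 and 30 months replicate 3, with scores from −16.6 to −12.1. Oculomotor 30 months replicate 2 lay as far to the other side at 14.2, and had the highest median (275.3) and the lowest share of signals at the floor (18%). Of the 36 Rab genes, 5 were lowest of their group on all 4 of these arrays (Rab10, Rab3a, Rab2b, Rab5c and Rab31) and 4 were highest on all 4 (Rab8a, Rab1a, Rab33b and Rab14), together 25% against 15.4% of all probe sets kept. The tissue labels were checked with markers. Th, the dopamine-synthesis enzyme of the neighbouring midbrain, lay between 1880 and 2890 on oculomotor arrays, against 55.4 to 138 on cord arrays. Chat, which makes acetylcholine in motor neurons, was present in both tissues but lower in the oculomotor nucleus, from 96.8 to 191, against 316 to 438 in the cord. Of the motor neuron markers, 7 of 7 tested were lower in the oculomotor nucleus, with summed signals of 17336 to 20461, against 25414 to 33909 in the cord.

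The tissues were compared first, as the mean difference over the 3 ages. In the oculomotor nucleus, 5 Rab genes were higher and 7 were lower than in the spinal cord, where 23.6% of all 9482 probe sets kept were higher and 23.6% lower. In total 12 of 36 passed (33.3%), a share below the background of 47.2%. At an unadjusted p under 0.05 there were 14 Rab genes, with a background of 53.5%, and 3 had tissues that did not overlap (8.33%, with a background of 14.2%). Rab26 stood out by size at 2.31-fold, and the other 11 differed by less than 1.5-fold. The median absolute difference was 0.135 on the log2 scale for the Rab genes and 0.194 for all probe sets kept. Tests here and below are limma's, 2-sided, with Benjamini-Hochberg adjustment over all probe sets kept and a call at an adjusted p under 0.05. In bulk tissue, fewer cells of a type and less RNA per cell cannot be told apart.

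**Figure D1:**
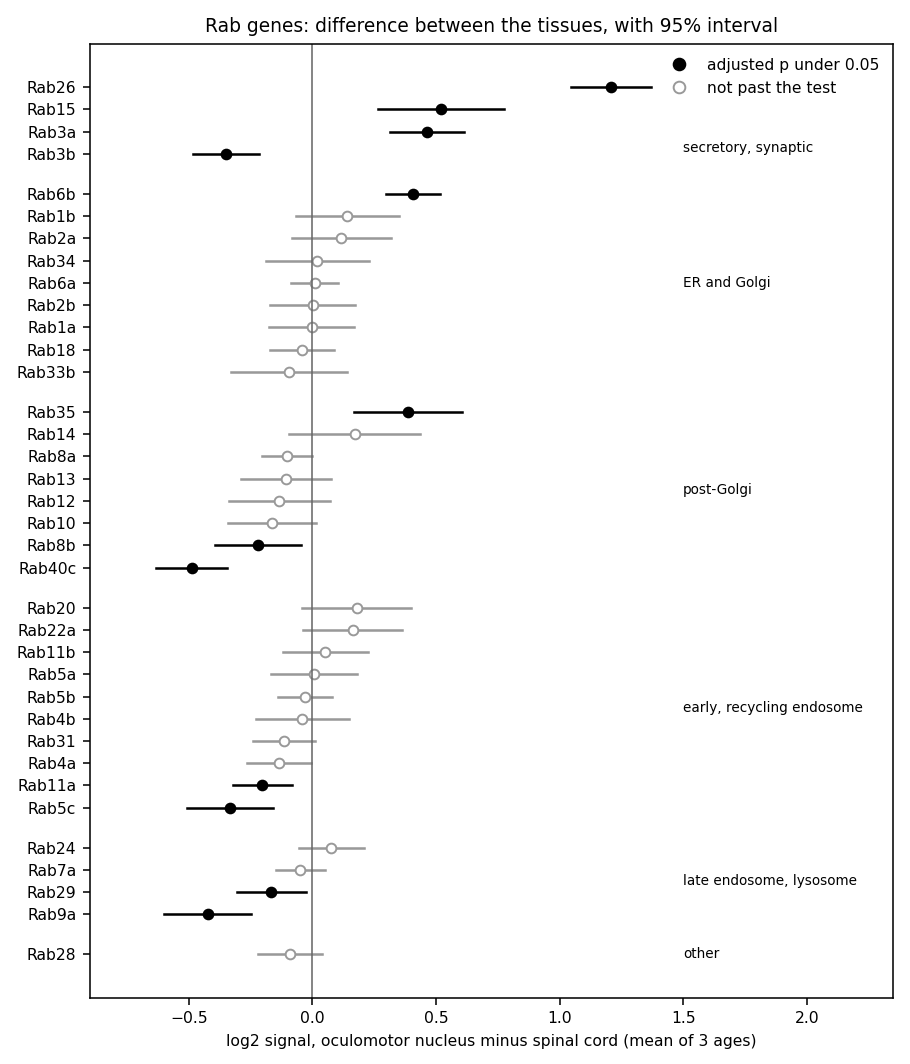
Difference of log2 signal between oculomotor nucleus and spinal cord, averaged over the 3 ages, for the 36 Rab genes that passed the filter, grouped by role; points are estimates and lines 95% intervals from limma. Filled points passed the test. Rab26 lies alone at 1.21, with Rab15 next at 0.52.

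Among secretory and synaptic Rabs, all 4 that passed the filter differed between the tissues, 3 upwards and 1 downwards. The background of 47.2% holds for each role, and with 1 to 10 genes in a role its count is a description. Rab26, which acts in the maturation of secretory granules and in the clustering of synaptic vesicles for autophagy, had signals of 544, 397 and 540.2 on oculomotor arrays at 6 months, against 220.4, 221 and 246 in the cord. At 18 months it had 589.9, 500 and 477 on oculomotor arrays, against 211, 223 and 188.5 on cord arrays. At 30 months it had 526, 488 and 577 on oculomotor arrays, against 229.9, 229 and 232 on cord arrays. Every oculomotor array lay above every cord array, with means of 515.5 ± 58.45 in the oculomotor nucleus and 222.3 ± 15.98 in the cord (SD, n = 9 each). The log2 difference was 1.21 with an SE of 0.0778 (adjusted p = 2.69e-10), and it was 1.09, 1.33 and 1.20 at 6, 18 and 30 months.

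Rab3a, the Rab of synaptic vesicles that regulates transmitter release, had a lowest, median and highest signal of 2997, 3884 and 4403 on oculomotor arrays, against 2329, 2864 and 3278 on cord arrays. The same 3 values are given for the genes that follow. The tissues overlapped because oculomotor 30 months replicate 3 lay below the highest cord array, and within each age they did not overlap. The log2 difference was 0.46 (SE 0.0716, adjusted p = 2.6e-05). Rab3a was the lowest of its group on each of the 4 arrays that stood apart, and without them the difference was 0.44. Rab3b, a close relative found on secretory vesicles of some neurons and endocrine cells, went the other way: 426.5, 495.5 and 543 on oculomotor arrays, against 518, 629 and 722 on cord arrays. The 2 tissues overlapped only narrowly, and the log2 difference was −0.35 (SE 0.0636, adjusted p = 0.000153).

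Rab15, a brain-enriched Rab of endosomes and receptor recycling that the role list places here, had 283, 427 and 491 on oculomotor arrays, against 181, 283 and 341 on cord arrays. Its log2 difference was 0.52 (SE 0.122, adjusted p = 0.0016 in limma), with overlapping tissues. The dimmer Rab15 probe set had the same sign, at 0.43, but did not pass (adjusted p = 0.0561). The 4 secretory Rabs under the filter were looked at in a fit with no filter. There Rab3c, another synaptic vesicle Rab, had signals from 99.2 to 161.8 on oculomotor arrays, against 68.1 to 107 on cord arrays, and was higher by 0.63 (adjusted p = 0.000439). In the same fit Rab27a, known from melanosomes and lytic granules, was lower, at −0.32 (adjusted p = 0.0135) and Rab3d, a Rab of exocrine granules, at −0.41 (adjusted p = 0.0338), but 4 and 8 of the 18 arrays lay at the floor of 66.4 for them. Rab27b, a secretory vesicle Rab, did not pass (0.22, adjusted p = 0.114).

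Among Rabs of the endoplasmic reticulum and Golgi, 1 of 9 differed. Rab6b, the neuron-enriched form of the Rab that returns vesicles to and through the Golgi, had 3452, 3689 and 4079 on oculomotor arrays, against 2563, 2808 and 3200 on cord arrays. No array of the oculomotor nucleus reached down to the cord, and the log2 difference was 0.41 (SE 0.0518, adjusted p = 2.6e-06). Its widely expressed relative Rab6a did not pass the test, at 0.01 with a 95% interval from −0.086 to 0.105. The same held for Rab1a and Rab1b, which work between endoplasmic reticulum and Golgi, for Rab2a and Rab2b, which act at the same boundary, and for Rab18 of lipid droplets, Rab33b, which binds an autophagy factor at the Golgi, and Rab34, a Rab of the Golgi and of cilium formation. The 95% intervals of these 8 genes reached at most from −0.329 to 0.352. Rab39a, under the filter, lay at the floor on all 18 arrays.

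Of 8 post-Golgi Rabs, 1 was higher and 2 were lower. Rab35, which drives fast return of cargo from endosomes to the plasma membrane, had 376, 475 and 516 on oculomotor arrays, against 267, 335 and 458 on cord arrays, a difference of 0.39 (SE 0.105, adjusted p = 0.00497) with overlapping tissues. Rab40c carries a SOCS box that links it to a ubiquitin ligase. It had 237, 277 and 341 on oculomotor arrays, against 373, 390 and 458 on cord arrays, with no overlap, and fell by 0.49 on the log2 scale (SE 0.0682, adjusted p = 8.45e-06). Rab8b, which serves exocytosis at the plasma membrane, was lower, at −0.22 (adjusted p = 0.0376), but it lost the call in 15 of 32 other settings. Rab8a of exocytosis and cilium growth, Rab10, which brings glucose transporters to the surface, Rab12, which steers transferrin receptors to lysosomes, Rab13 of epithelial junctions and Rab14, between Golgi and endosomes, did not pass, with differences from −0.16 to 0.17. A dimmer Rab14 probe set was higher by 0.17 (adjusted p = 0.0145).

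Of 10 Rabs of early and recycling endosomes, 2 were lower and none was higher. Rab5c, one of the 3 Rab5 forms that fuse early endosomes, had 650.4, 765 and 925 on oculomotor arrays, against 766, 989 and 1171 on cord arrays. The tissues overlapped, with a difference of −0.33 (SE 0.0824, adjusted p = 0.00247). With the mean log2 of the muscle list as a covariate, Rab5c lost the call (−0.26, adjusted p = 0.067). Rab11a, the Rab of slow recycling endosomes, had 1304, 1552 and 1666 on oculomotor arrays, against 1568, 1801 and 1953 on cord arrays (−0.20, adjusted p = 0.00697). Its other probe set had the other sign (0.07, adjusted p = 0.481). Without the 3 oculomotor arrays highest in Ttr, a choroid plexus transcript, the call was lost, in a fit with 1 oculomotor array left at 18 months. Rab4a and Rab4b of fast recycling, Rab5a, Rab5b and Rab22a of early endosomes, Rab11b of slow recycling, Rab20 of phagosomes and Rab31, which links Golgi and endosomes, did not pass, with differences from −0.14 to 0.18. The dimmer probe set of Rab22a was lower, at −0.66 (adjusted p = 0.00164), while the brighter one stood at 0.16 (adjusted p = 0.171).

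Of 4 Rabs of late endosomes and lysosomes, 2 were lower. Rab9a, which returns mannose 6-phosphate receptors from late endosomes to the Golgi, had 348, 467 and 599 on oculomotor arrays, against 496, 634 and 747 on cord arrays. The upper oculomotor arrays overlapped the lower cord arrays, and the difference was −0.42 (SE 0.084, adjusted p = 0.000366). Rab29, known for recruiting the kinase LRRK2 to membranes, passed narrowly at −0.17 (adjusted p = 0.0495) and lost the call in 21 of 32 other settings. Rab7a, the main Rab of late endosomes, and Rab24, linked to autophagy, did not pass, nor did Rab28, a Rab of photoreceptor cilia in the remaining group. Under the filter, Rab38 of melanosomes (−0.11), Rab23 of hedgehog signalling (−0.23) and Rab25 of epithelia (0.13) did not pass in the fit without a filter, with adjusted p from 0.398 to 0.634 in limma.

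**Figure D2:**
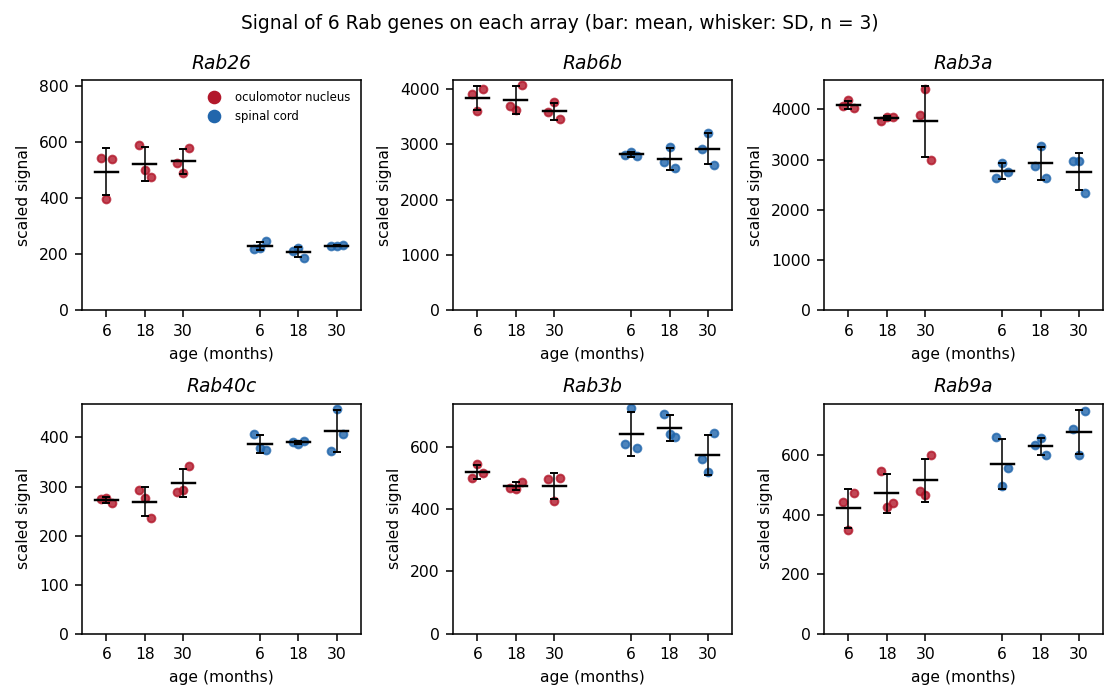
Scaled signal (linear scale, y axis from 0) of 6 Rab genes on each of the 18 arrays, oculomotor nucleus left and spinal cord right, by age in months; bars are means and whiskers SDs of 3 arrays. Rab26, Rab6b and Rab3a lie higher in the oculomotor nucleus and Rab40c, Rab3b and Rab9a lower, and no difference between ages passed the test.

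Cell type markers differed between the same tissues. General neuron markers were higher in the oculomotor nucleus for 9 of 13 genes tested and lower for 1, with summed signals of 50064 to 56922, against 39999 to 49853 in the cord, and midbrain monoamine markers were higher for 5 of 5. Microglia and macrophage markers were lower for 15 of 15, with sums of 10070 to 18030, against 15941 to 34494 in the cord, and oligodendrocyte markers were lower for 7 of 10. Astrocyte markers were higher for 1 and lower for 5 of 9, endothelial markers lower for 6 of 7 and the Schwann cell marker for 1 of 1. Markers of choroid plexus and meninges were higher for 2 and lower for 8 of 10, with sums of 8376 to 16087, against 16439 to 27203 in the cord. Skeletal muscle transcripts were lower for 3 of 3 and summed to 681 to 1353 on oculomotor arrays, against 1130 to 10911 on cord arrays. The part of these cell types in the Rab differences was not tested. The 3 cord arrays highest in Acta1 are called muscle-rich, and the 3 oculomotor arrays highest in Ttr choroid-rich. The latter are replicate 1 at 6 months and replicates 1 and 3 at 18 months. The summed choroid list ranks the arrays differently, with 12512 to 16087 at 6 months and 10235 to 12668 at 18 months. Leaving out either set leaves 1 group with 1 array. In both fits the age-averaged differences of Rab26, Rab3a, Rab6b, Rab35, Rab15, Rab40c, Rab3b and Rab9a kept their sign.

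Within single ages and by limma, 6 Rab genes passed at 6 months (16.7%, with a background of 26.1%), 8 at 18 months (22.2%, with 26.2%) and 6 at 30 months (16.7%, with 21%). At 6 months 3 were higher and 3 lower (background 12.7% and 13.4%), at 18 months 4 and 4 (12.3% and 13.9%) and at 30 months 4 and 2 (9.7% and 11.3%). At an unadjusted p under 0.05 there were 8, 8 and 9 (background 37%, 36.6% and 33.1%). The tissues did not overlap for 8, 9 and 13 Rab genes (background 40.7%, 44.9% and 33.5%). With 1 array left out, 4 to 8 Rab genes passed at 18 months, and the 30-month count ranged from 3 to 7. The count was 4 without oculomotor replicate 2 or cord replicate 1 at 18 months, 5 without oculomotor replicate 1 or cord replicate 2 or 3 there, and 3 without oculomotor replicate 2 or cord replicate 3 at 30 months. Rab26, Rab3a, Rab6b and Rab40c passed at all 3 ages. Rab26 kept its call in 32 of 32 other settings at each age. Rab3a kept it in 32 at 6 months, 24 at 18 and 29 at 30, Rab6b in 32, 31 and 26, and Rab40c in 30, 31 and 30. Many of these settings leave out 1 array of another age, which leaves the difference unchanged, so the counts can overstate how firm a call is. At 18 months Rab3a lost its call without oculomotor replicate 1, 2 or 3 or cord replicate 1 or 3 of that age. Without cord replicate 3 at 30 months, for example, Rab3a stood at 0.32 (adjusted p = 0.0904) and Rab6b at 0.23 (adjusted p = 0.0983) there. Rab40c at 6 months, fitted with the muscle list as covariate, stood at −0.46 (adjusted p = 0.0641). Rab9a passed at 6 and 18 months, with the call kept in 22 and 20 of 32 settings. At 18 months Rab9a lost it without oculomotor replicate 2 or 3 or cord replicate 1, 2 or 3 of that age. At 30 months it had 479, 467 and 599 on oculomotor arrays, against 687, 599.6 and 747 on cord arrays (−0.40, adjusted p = 0.0573). Same-numbered 30-month samples of the 2 tissues had correlated deviations, which does not show that they shared animals. With same-numbered arrays of all ages taken as a block in limma, Rab9a passed there too (adjusted p = 0.0355). That block also joins arrays of different ages, though only 1 of 15 pairs of groups had every same-number correlation over 0.1. It is an alternative setting, and the main test did not call Rab9a at 30 months. The other 6 genes passed at 1 age each. Rab8b passed at 6 months and kept its call in 9 of 32 settings. Rab35, Rab3b and Rab8a passed at 18 months and kept it in 25, 31 and 13. Rab35 lost it without oculomotor replicate 1 or 2 or cord replicate 1 or 2 of that age. Rab15 and Rab5c passed at 30 months and kept it in 28 and 27. Of the 30-month arrays, Rab15 lost it without oculomotor replicate 1 or 2 or cord replicate 3. Rab5c lost it without oculomotor replicate 3 or cord replicate 1 or 2. No Rab gene differed between the tissues in its change with age: 0 of 36 from 6 to 18 months and 0 of 36 from 6 to 30 months, as for all probe sets kept (0%). At an unadjusted p under 0.05 in limma there was 1 Rab gene (Rab8a) in the first and 0 in the second, with backgrounds of 5.07% and 5.47%.

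The same values can be read as the balance within families, as the log2 ratio of the signals of 2 related Rabs on each array. Such a ratio restates the differences of its genes given above, so it is a description with no test. Relative to the cord mean, the Rab3a/Rab3b ratio lay between 0.42 and 1.20 on oculomotor arrays, against −0.31 to 0.35 on cord arrays, and the tissues did not overlap. Rab6b/Rab6a lay between 0.21 and 0.55 on oculomotor arrays, against −0.15 to 0.22 on cord arrays, with the extremes touching. The difference between the tissues was 0.81 for Rab3a/Rab3b and 0.40 for Rab6b/Rab6a. For Rab5c it was −0.30 to Rab5b and −0.34 to Rab5a. For Rab11a/Rab11b it was −0.26 with the brightest probe sets, while the other Rab11a probe set stood at 0.07 between the tissues and the 2 Rab11b probe sets at 0.05 and 0.01. The ratios of Rab8b to Rab8a, Rab1a to Rab1b, Rab2a to Rab2b, Rab4a to Rab4b and Rab5a to Rab5b differed by −0.14 to 0.12.

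**Figure D3:**
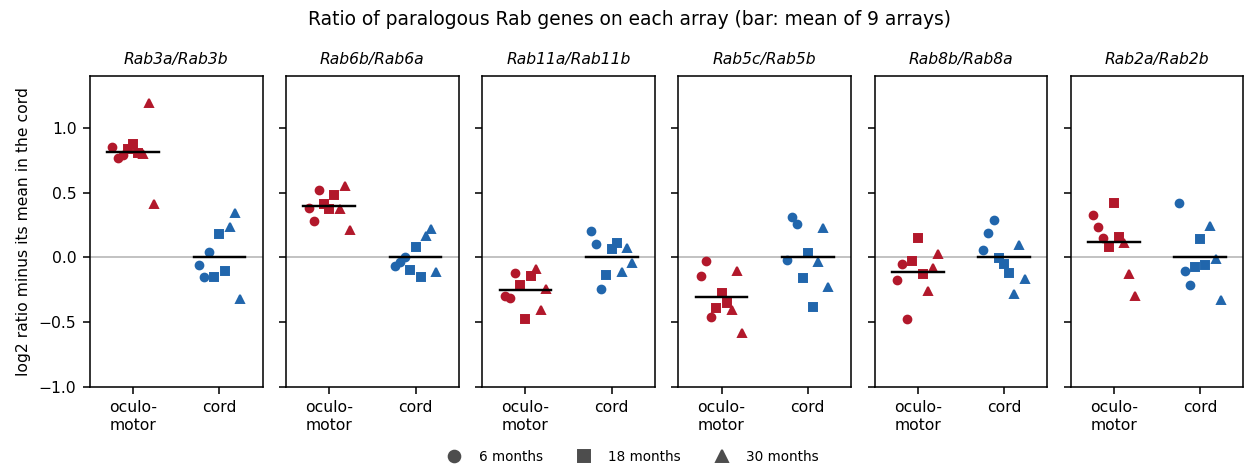
Log2 ratio of 2 related Rab genes on each array, minus the mean of that ratio over the 9 cord arrays, for 6 of the 10 pairs; circles, squares and triangles are 6, 18 and 30 months and bars are means of 9 arrays. Rab3a/Rab3b separates the tissues without overlap, and Rab8b/Rab8a does not separate them.

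The promoters of Rab6b and Rab3a, which were higher, and of Rab40c and Rab3b, which were lower, are shown to set their bases beside the results. RefSeq windows on build GRCr8, from 250 bases before to 50 after the start, matched 36 of the 44 Rab genes. Rab26 had no entry and is named only. Capitals mark the GC box GGGCGG or its reverse complement CCGCCC. Rab6b lies at chr8:112573973-112574272 on the plus strand, Rab40c at chr10:15440610-15440909 on the minus strand, Rab3a at chr16:18722224-18722523 on the minus strand and Rab3b at chr5:128858841-128859140 on the plus strand.
Rab6b: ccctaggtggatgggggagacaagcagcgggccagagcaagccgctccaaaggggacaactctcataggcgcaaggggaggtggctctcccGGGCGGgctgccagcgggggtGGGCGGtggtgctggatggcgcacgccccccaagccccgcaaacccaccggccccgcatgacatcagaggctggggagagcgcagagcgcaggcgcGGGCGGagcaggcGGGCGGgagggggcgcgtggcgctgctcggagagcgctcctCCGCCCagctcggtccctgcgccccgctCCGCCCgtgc
Rab40c: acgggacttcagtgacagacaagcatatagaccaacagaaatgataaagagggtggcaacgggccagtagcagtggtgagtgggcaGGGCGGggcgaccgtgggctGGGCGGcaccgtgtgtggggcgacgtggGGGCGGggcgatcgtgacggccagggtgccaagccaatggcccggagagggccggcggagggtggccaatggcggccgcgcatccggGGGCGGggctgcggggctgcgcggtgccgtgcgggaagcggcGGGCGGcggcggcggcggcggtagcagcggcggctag
Rab3a: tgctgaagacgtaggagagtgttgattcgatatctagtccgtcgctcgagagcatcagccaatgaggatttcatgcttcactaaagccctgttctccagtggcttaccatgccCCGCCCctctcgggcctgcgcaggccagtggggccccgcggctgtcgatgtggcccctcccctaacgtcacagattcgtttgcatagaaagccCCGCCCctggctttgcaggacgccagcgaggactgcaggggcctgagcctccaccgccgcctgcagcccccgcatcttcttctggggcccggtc
Rab3b: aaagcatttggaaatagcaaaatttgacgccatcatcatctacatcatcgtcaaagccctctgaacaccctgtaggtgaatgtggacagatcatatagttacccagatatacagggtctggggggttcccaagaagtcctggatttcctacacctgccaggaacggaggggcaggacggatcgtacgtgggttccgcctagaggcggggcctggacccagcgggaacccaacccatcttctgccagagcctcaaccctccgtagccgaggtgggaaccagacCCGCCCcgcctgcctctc

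The Rab6b window held 6 GC boxes and 30 CG dinucleotides, that of Rab40c 5 and 36, that of Rab3a 2 and 20, and that of Rab3b 1 and 13. GC boxes were therefore found in genes that were higher and in genes that were lower. Over the family, GGGCGG stood in 31 of 36 windows, where 34.9% of 27457 promoters hold it, and the median number of CG dinucleotides was 22.5, against 7.0 in all promoters. The E-box CANNTG, searched on both strands, stood in 18 of 36, where 71.6% of all promoters hold it. Its form CACGTG, which it contains, stood in 3 of 36 (6.7% of all promoters), and the cAMP response element TGACGTCA in 1 of 36 (1.9%). The 27457 promoters were not limited to genes on the array or past the filter, so their shares are not a matched background. A match describes letters only.

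Ages were compared within each tissue, with 6 months as the design text's baseline. Of the 36 Rab genes, 0 passed the test in any of the 6 comparisons of ages or in the F tests over the ages of each tissue. Few genes of any kind passed: 0% of all probe sets kept between 18 and 6 months in the oculomotor nucleus, 0.211% between 30 and 6 and 0.0105% between 30 and 18. In the cord the shares were 0.728%, 0.221% and 0.0105%, and the F tests called 0.0844% in the oculomotor nucleus and 0.411% in the cord. A count of 0 among 36 genes lies near shares this small. At an unadjusted p under 0.05 in limma, the oculomotor nucleus had 0 Rab genes between 18 and 6 months (background 3.39%), 0 between 30 and 6 (8.12%) and 0 between 30 and 18 (4.71%). The cord had 1 (10.3%), 1 (10.7%) and 0 (2.14%), and the F tests had 0 and 0 (5.44% and 8.95%). Ages that did not overlap were seen for 4, 3 and 1 Rab genes in the oculomotor nucleus (background 14.5%, 13.9% and 8.81%) and for 4, 4 and 1 in the cord (13.6%, 13.1% and 6.46%).

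Intervals are those of the brightest probe set of each gene. For all 36 genes, every 95% interval of the 6 age comparisons lay within 2-fold either way, and between 32 and 35 genes lay within 1.5-fold. The pooled SD within groups had a median of 0.174 on the log2 scale over the Rab genes, from 0.059 for Rab8a to 0.319 for Rab14, and 0.176 over all probe sets kept. A p that misses the threshold does not show that the levels were equal.

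**Figure D4:**
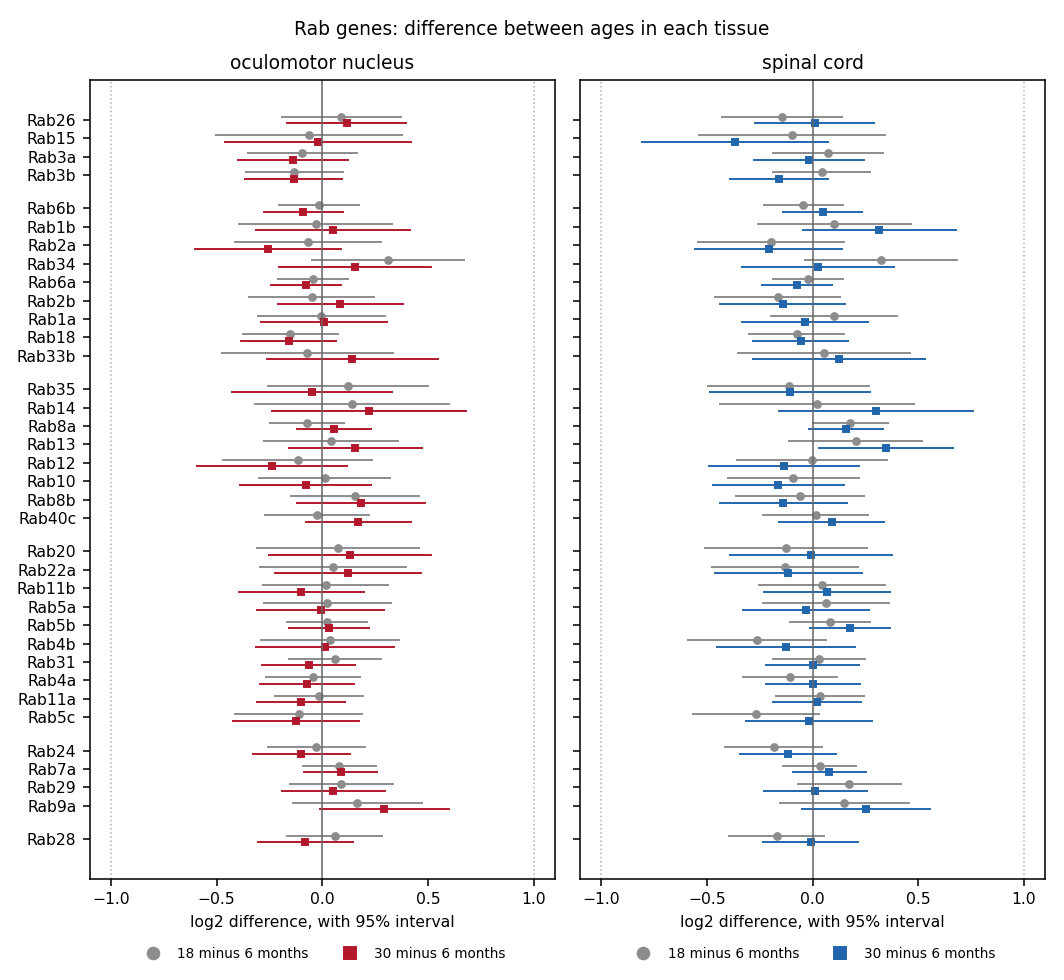
Log2 difference of signal, 18 minus 6 and 30 minus 6 months, for oculomotor nucleus (left) and spinal cord (right), of the 36 Rab genes; lines are 95% intervals from limma and the dotted lines mark a 2-fold change. No interval reaches the dotted lines and none of the differences passed the test.

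In the oculomotor nucleus between 18 and 6 months, the 5 genes with the smallest p were Rab34, Rab18, Rab3b, Rab9a and Rab8b. Rab34 had 493, 448 and 619 at 18 months, against 397.5, 425 and 425 at 6 months. All 18-month arrays lay above all 6-month arrays, yet the difference of 0.31 had an adjusted p of 1. Its other probe set gave 0.05. Between 30 and 6 months the 5 were Rab9a, Rab2a, Rab18, Rab40c and Rab12. Rab9a had 479, 467 and 599 at 30 months, against 443, 348 and 471 at 6 months, a difference of 0.29 that did not pass (adjusted p = 0.615), with 1 array of 30 months below the highest array of 6 months. Rab2a had 2344, 2572 and 1683 at 30 months, against 2487, 2775 and 2517 at 6 months, and its difference of −0.26 moved to −0.08 with the arrays that stood apart left out. For Rab12 the difference of −0.24 rested on replicate 2 at 30 months, which read 805 where the other 2 read 1458 and 1557. Without that array it was 0.06.

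Between 30 and 18 months in the oculomotor nucleus, Rab40c, Rab8a, Rab28, Rab31 and Rab2a had the smallest p, with differences from −0.19 to 0.20 and an adjusted p of 0.976 or more for each.

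In the cord between 18 and 6 months, the 5 were Rab8a, Rab5c, Rab34, Rab24 and Rab4b. Rab8a had 829, 880.5 and 899.5 at 18 months, against 796, 727 and 782 at 6 months. The groups did not overlap, and the difference of 0.18 had an unadjusted p of 0.0469 and an adjusted p of 0.476 in limma. Rab34 had 456, 518 and 617 at 18 months, against 471.5, 377 and 421 at 6 months (0.32). Its other probe set had the other sign, at −0.05.

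Between 30 and 6 months in the cord they were Rab13, Rab5b, Rab8a, Rab1b and Rab15. Rab13 had 220.7, 242 and 342 at 30 months, against 210.1, 200.5 and 211 at 6 months. All 3 arrays at 30 months were higher, and the difference was 0.35 (unadjusted p = 0.034, adjusted p = 0.413). The highest value came from replicate 3, one of the arrays that stood apart, and without it the difference was 0.16. Rab15 had 259, 283 and 181 at 30 months, against 305, 328 and 285 at 6 months (−0.37, adjusted p = 0.577), without overlap. The lowest value came from the same replicate 3, and without it the difference was −0.17. The other Rab15 probe set gave −0.10. Rab5b stood at 0.18 and its other probe set at −0.04. Between 30 and 18 months, Rab3b, Rab5c, Rab34, Rab28 and Rab29 had the smallest p, with differences from −0.30 to 0.25 and an adjusted p of 1 each.

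The proteins that switch Rabs and act downstream of them were followed in lists. Of 58 regulators (exchange factors, GTPase activating proteins, GDI, escort protein and prenyl transferase), 36 were matched and 30 passed the filter. Between the tissues, 5 were higher and 6 lower in the oculomotor nucleus (36.7%, with a background of 47.2%). Rabggtb, the catalytic subunit of the transferase that adds the lipid tail, was higher by 0.71 (SE 0.0664, adjusted p = 4.87e-08). Madd, an exchange factor for Rab3, was higher by 0.61 (adjusted p = 6.59e-07). Tbc1d14, a Rab11-binding protein of autophagy, was lower, at −0.49 (adjusted p = 2.22e-06), and Rin2, an exchange factor for Rab5, at −0.41 (adjusted p = 0.000433).

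Of 74 effectors and tethers, 47 were matched and 38 passed the filter. Of these, 12 were higher and 8 lower between the tissues (52.6%, near the background of 47.2%). Micall1, which links Rab8 and Rab35 to recycling endosomes, was 2.01-fold lower (log2 −1.01, adjusted p = 3.2e-10). Plin3, a lipid droplet protein also known as a Rab9 partner, was lower, at −1.36 (adjusted p = 6.24e-09). Sytl2, a Rab27 effector, was lower, at −0.44 (adjusted p = 8.57e-06) and Fyco1, a Rab7 effector of vesicle transport, at −0.55 (adjusted p = 6.88e-05). With age, 1 regulator of 30 passed (3.33%, with a background of 0.728%): Rin2 in the cord between 18 and 6 months (0.65, adjusted p = 0.0462). It lost the call with no filter. No effector passed in any comparison of ages.

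The 14 genes with several probe sets allowed a check between probe sets, chosen after the values were seen. In the oculomotor nucleus between 30 and 6 months, all 16 dimmer probe sets had a negative difference, from −0.55 to −0.04 with a median of −0.17, and 0 passed the test. Among the brightest probe sets of the same genes, 8 of 14 were negative with a median of −0.01. Over all genes with several probe sets, 61.6% of 1066 dimmer ones were negative. Of the 16, 8 were lowest at 30 months on replicate 3, 6 on replicate 2 and 2 on replicate 1. Replicates 3 and 2 lay far out on opposite sides of the leading principal component. The dimmer Rab6a probe set had 1411, 1211 and 901 at 30 months, against 1581, 1673 and 1673 at 6 months (−0.51, unadjusted p = 0.00705, adjusted p = 0.396 in limma), while the brightest Rab6a probe set stood at −0.08. Without replicate 2 at 30 months 13 of 16 were negative (63.7% over all genes), and without replicate 3, one of the arrays that stood apart, 14 of 16 (53.3%). In the cord, 9 of 16 were negative between 30 and 6 months (56.2%, with 52.3% over all genes) and 12 of 16 between 18 and 6 months (75%, with 56.2%). Between 18 and 6 months in the oculomotor nucleus it was 10 of 16 (62.5%, with 51%).

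**Figure D5:**
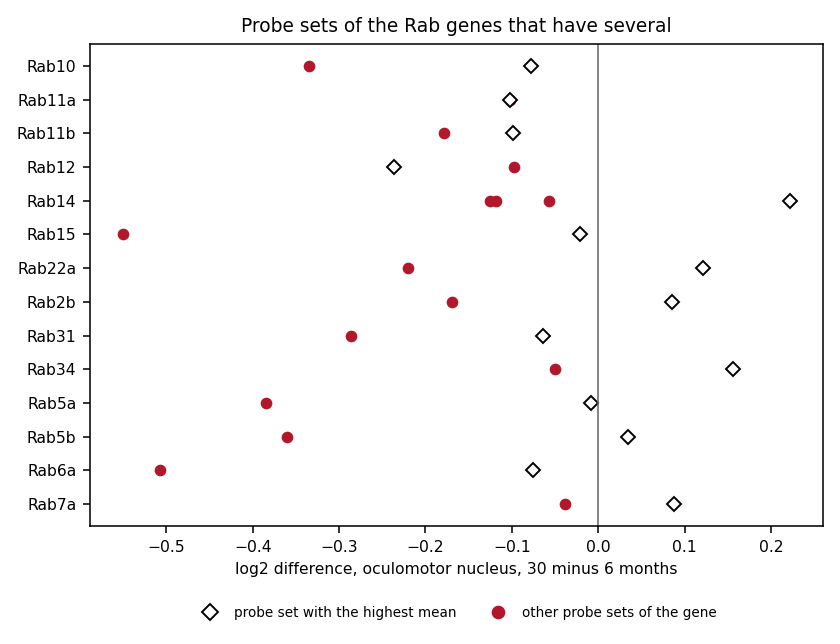
Log2 difference between 30 and 6 months in the oculomotor nucleus for each probe set of the 14 Rab genes that have several; diamonds are the brightest probe set of a gene and red circles the others. Every circle lies left of 0, that of Rab11a hidden by its diamond, while the diamonds lie on both sides.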

How the data were processed

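Biotinylated cRNA, according to the design text, was hybridised to Affymetrix Rat Genome RA230 arrays. Per the labels, the authors scanned the arrays and summarised them with Microarray Suite 5.0, and the deposited table holds 1 linear intensity per probe set and array, without detection calls. The label field names Cy3 and Cy5 while the design text describes biotin labelling, and the values were treated as those of a 1-colour array. Intensities were brought to a common 2% trimmed mean (factors 0.999981 to 1.00002), raised to a floor of 66.4 (the pooled 20th percentile) and taken to log2. Probe sets with a mean log2 over 7.459 (the pooled 40th percentile) were kept, 9482 of 15923, after 57 controls were removed. The 6 group means were fitted with limma 3.58.1 in R 4.3.3 (eBayes with trend, 12 residual degrees of freedom). The fit was run beforehand on simulated independent arrays, with differences larger than most of those found here. That run cannot show how the fit does with smaller differences or with arrays that deviate together. A fold change is 2 to the power of the difference of mean log2 signals.

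Named genes were all called members, up to 8 per direction between the tissues, and the 5 smallest p in each comparison of ages. For the lists, the called genes with the smallest p were named. The members, roles and lists were chosen with earlier results of these data known. Every r of same-numbered deviations exceeded 0.1 only between the tissues at 30 months (0.121 to 0.501). This does not show shared animals, since oculomotor replicate 2 had a higher r with cord replicate 1 (0.285) than with cord replicate 2 (0.235). The r of 0.501 joined 2 arrays that stood apart, and oculomotor 30 months replicate 3 had 0.418 with cord 18 months replicate 3. The replicate block joined same-numbered arrays of all ages. The ratios of related Rabs, the counts of calls kept at single ages and the comparison of probe sets were added after the values were seen. Other settings were normalization, floor, filter, array weights, blocks and arrays left out.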

Additional observations from a re-analysis of the deposited data

How the results depend on the processing

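The number of Rab genes called between the tissues, averaged over the ages, lay between 10 and 14 with 1 array left out. Over 33 other settings it was lowest without the 3 choroid-rich oculomotor arrays, which leaves 1 oculomotor array at 18 months. It was highest, at 15, with no filter, where all 44 genes were counted and not 36. For the age comparisons and the tissue differences in age change, 0 Rab genes passed in any of 344 combinations of a setting and a comparison. For the age comparisons these include a rule of no overlap with a mean ratio over 1.7, which is not a limma test. In the main fit at most 0.728% of all probe sets kept passed in any of these comparisons. A count of 0 of 36 lies near such shares and says little about stability. At single ages the counts were less stable. At 6 months, 3 passed with the muscle list as a covariate, against 6, and 1 by the rule of no overlap with a mean ratio over 1.7. At 18 months, 5 passed with quantile normalization, 5 without the muscle-rich cord arrays, 1 without the choroid-rich oculomotor arrays (which leaves 1 oculomotor array of that age, with its spread taken from the remaining groups) and 1 by the rule of no overlap, against 8. At 30 months, 1 passed by that rule, against 6. With 1 array left out, the 6-month count lay between 5 and 6, the 18-month count between 4 and 8, and the 30-month count between 3 and 7. The lowest counts came without oculomotor replicate 2 or cord replicate 1 at 18 months (4 each), and without oculomotor replicate 2 or cord replicate 3 at 30 months (3 each). At 18 months the count was 5 without oculomotor replicate 1, cord replicate 2 or cord replicate 3.

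Rab26, Rab15, Rab3a, Rab6b, Rab35, Rab40c, Rab9a and Rab3b kept their call between the tissues, averaged over the ages, in 32 of 32 settings. Rab12 in the oculomotor nucleus between 30 and 6 months reversed to 0.065 without replicate 2 at 30 months, and over all arrays left out it lay between −0.411 and that value. With the replicate block, 11 Rab genes passed between the tissues over the ages and 6, 7 and 7 at 6, 18 and 30 months. Rab29 was lost (adjusted p = 0.062), as were Rab8b at 6 months (0.0527) and Rab8a at 18 months (0.0585), while Rab5c at 6 months was gained (0.021), as was Rab9a at 30 months. Causes were not tested.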

Other observations

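Among the 8 Rab genes under the filter, Rab27b, a secretory vesicle Rab, had 172, 150 and 156 in the cord at 30 months, against 114, 103 and 89.6 at 6 months. All 3 arrays at 30 months were higher, and with no filter the log2 difference was 0.64 (unadjusted p = 0.00252, adjusted p = 0.184 in limma), so it did not pass. In the oculomotor nucleus it had 137, 198 and 226 at 30 months, against 136, 128 and 174 at 6 months (0.34, adjusted p = 0.76), with overlap. Rab3c had 102, 137 and 99.2 in the oculomotor nucleus at 30 months, against 137, 149 and 159 at 6 months, a difference of −0.41 that did not pass (adjusted p = 0.681), and in the cord the difference was −0.02.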
